A study of Mus musculus with 2 samples.

Results

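The genes of cholesterol synthesis, uptake, storage, efflux and sterol control were followed in intestinal stem cells of fasted and fed mice. The set held 33 genes of the 45706 gene IDs in the count tables. They were chosen by their known roles, with earlier results of these data known, and fell into 6 groups: 8 early mevalonate steps, 11 late sterol steps, 4 sterol regulators, 5 genes of uptake and intracellular transport, 2 genes of esterification and 3 of efflux. RNA sequencing was carried out on 1 library from fasted mice and 1 library from mice given standard chow ad libitum. Both came from 4-month-old mice of the strain Lgr5-EGFP-IRES-creERT2, which carry a green fluorescent reporter (and a tamoxifen-inducible Cre recombinase) at Lgr5, a gene of stem cells at the crypt base, and cells of high GFP were taken. The labels do not say how long the fast was, whether Cre was induced or how many mice entered a library.

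Cholesterol is built from acetyl-CoA through mevalonate and farnesyl diphosphate (the early steps) and then through squalene, lanosterol and a series of sterols (the late steps). When sterol in the endoplasmic reticulum is low, SCAP carries SREBP2 to the Golgi, where it is cut and released to switch on synthesis and uptake genes, and INSIG proteins hold this complex back when sterol is plentiful. When sterol is in excess, oxysterols activate the LXR receptors, which raise efflux genes such as Abca1, Abcg5 and Abcg8, and Mylip, whose product degrades the receptor of low-density lipoprotein. In the intestine, NPC1L1 takes up dietary sterol at the brush border, the ABCG5 and ABCG8 pair pumps sterol back into the lumen, and SOAT2 esterifies sterol for export.

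The fasted library held 5020056 counts and the fed library 6985316 counts, so a single read stood for 0.199 counts per 1000000 of the library total (CPM) in fasted and 0.143 CPM in fed cells. Ratios are fasted over fed after scaling by size factors, and each 95% interval is an exact Clopper-Pearson interval that covers counting error only. With 1 library per group there was no replicate check and no test, so each difference describes these 2 libraries. Calls of higher or lower required a 2-fold ratio together with an interval on 1 side of 1. Genes that averaged 1 CPM or more over the libraries and had 20 or more counts in all were termed measured. All 13 listed markers of crypt-base stem cells had counts in both libraries, with a summed level of 14846 CPM in fasted and 22418 CPM in fed cells. Most of this sum was Olfm4, with 8257 CPM in fasted and 14373 CPM in fed cells. The median log2 ratio of the 13 was -0.29 and none was called. Of the 13, 12 were negative (92.3%, against 52.1% of all measured genes). Their intervals lay below 1 for 11 (84.6%, against 19.2% of all measured genes). The reporter gene Lgr5 had 340 CPM in the fasted and 484 CPM in the fed library. The summed markers of Paneth cells came to 990 CPM in fasted and 1141 CPM in fed cells, those of goblet cells to 1244 CPM in fasted and 637 CPM in fed cells. The 8 Paneth markers were split, with 2 called higher, none lower and 4 intervals below 1 (50%, against 19.2% of all measured genes). Of 8 goblet markers 3 were called higher and none lower. Over all measured genes, 2.51% were called higher and 1.91% lower. The summed markers of immune cells reached 6.97 CPM in fasted and 13.2 CPM in fed cells, and those of stroma and endothelium came to 7 counts in fasted and 14 in fed cells. In bulk RNA of a sort, fewer cells of a type and less RNA per cell cannot be told apart.

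Synthesis genes had nearly the same summed level in both libraries, and the ratios farthest from 1 were those of Mylip and of the efflux gene Abca1, both under 1. All 33 genes were measured. None was called higher and 1, Mylip, was called lower, where 2.51% of the 12026 measured genes were called higher, 1.91% lower and 4.42% in either direction. The interval held a ratio of 1 for 21 of the 33 genes (63.6%), lay below 1 for 9 (27.3%) and above 1 for 3 (9.09%). The same shares over all measured genes were 64.1%, 19.2% and 16.7%. The median log2 ratio of the 33 was -0.07 (0.955-fold), against -0.02 over all measured genes. Of the 33, 21 were negative (63.6%, against 52.1% of all measured genes).

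**Figure D1:**
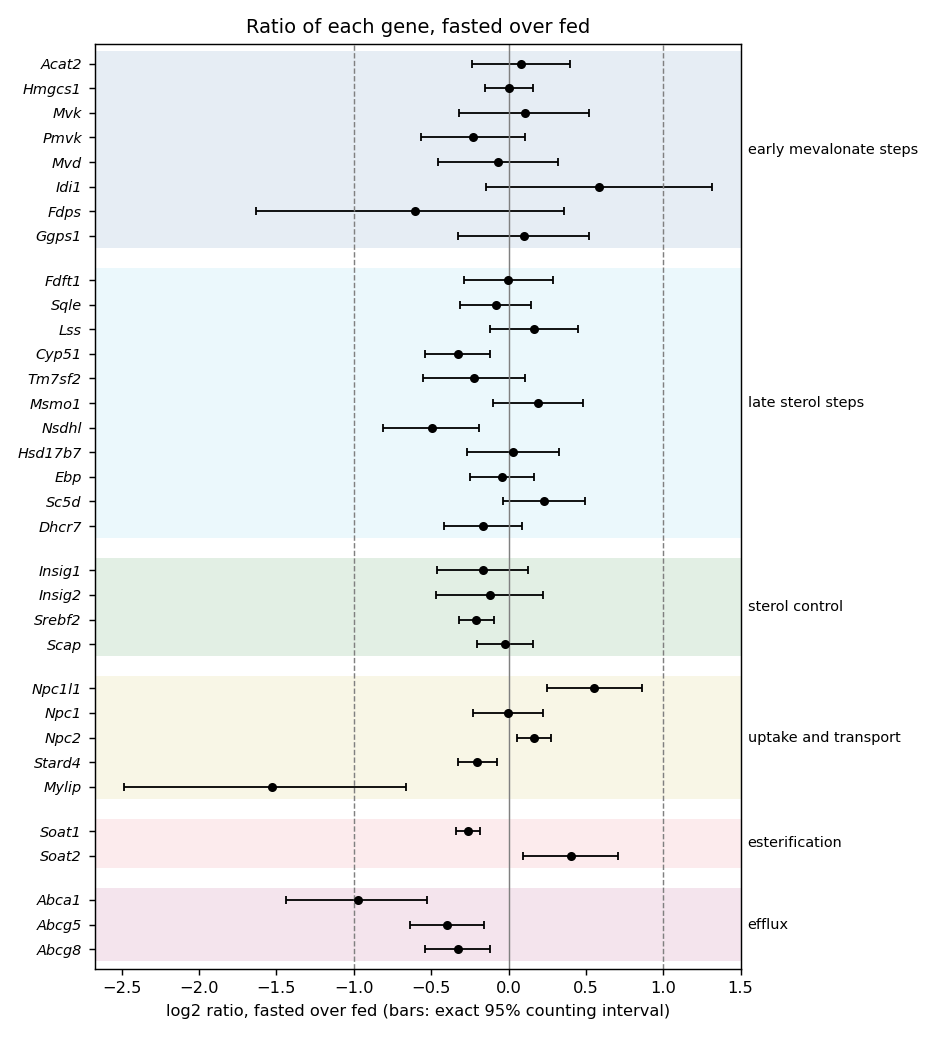
Log2 ratio of fasted over fed for each of the 33 genes (x axis, dots) with its exact 95% counting interval (bars), by role from top to bottom. The dashed lines mark 2-fold; Mylip at -1.53 lies beyond the left line and Abca1 at -0.97 just inside it, while the 19 synthesis genes lie between -0.60 and 0.58.

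The early steps showed no difference past counting error in any gene. None of the 8 was called, against 4.42% of all measured genes, and all 8 intervals held 1, against 64.1%. Of the 8 intervals 6 lay inside 2-fold in either direction (75%, against 79.1% of all measured genes). The median log2 ratio of the 8 was 0.04 (range -0.60 to 0.58). Their summed counts were 1164 in the fasted and 1645 in the fed library, or 232 and 235 CPM, a log2 ratio of -0.0012 (-0.11 to 0.11). Hmgcs1, which joins acetoacetyl-CoA and acetyl-CoA into HMG-CoA, was the most abundant of them. It had 581 counts (116 CPM) in fasted cells and 820 counts (117 CPM) in fed cells, a ratio of 1.001 (0.898 to 1.11), so that a 2-fold difference lay far outside its interval.

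The promoter of Hmgcs1 is shown because SREBP2 acts through a sterol regulatory element, and this was the 1 window of the set that held its core letters. The window spans 250 bases before to 50 bases after the RefSeq start (GRCm38.p6, chr13:119690101-119690400, plus strand), and capitals mark TCACNCCAC and each CCAAT on either strand.

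Hmgcs1: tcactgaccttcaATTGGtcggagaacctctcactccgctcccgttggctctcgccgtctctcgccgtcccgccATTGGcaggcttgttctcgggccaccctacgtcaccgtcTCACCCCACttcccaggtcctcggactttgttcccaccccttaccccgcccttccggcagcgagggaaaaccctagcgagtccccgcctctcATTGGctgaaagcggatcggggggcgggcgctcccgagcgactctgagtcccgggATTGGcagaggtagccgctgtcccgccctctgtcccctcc

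RefSeq windows were at hand for 27 of the 33 genes. The core TCACNCCAC, searched on both strands, was found in 1 of the 27 (3.70%), against 1.44% of 27025 genes with a window and 1.44% of 9005 measured protein-coding genes. CCAAT, the letters of the box bound by NF-Y, a factor that works beside SREBP2, was found in 24 of the 27 (88.9%) and in 15 of 16 synthesis genes, against 41.1% of all genes and 43.6% of measured protein-coding genes. The 3 without it were Abca1, Acat2 and Scap. The E-box CACGTG was found in 6 of 27 (22.2%), against 8.09% of all genes and 12.1% of measured protein-coding genes. The half-site AGGTCA of nuclear receptors was found in 4 of 27 (14.8%), against 18.1% and 15.0%. These matches describe letters in a 300-base window, and genes with several RefSeq starts were counted once if any window held the motif.

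The other early enzymes had levels within counting error of each other in the libraries. Acat2, which makes acetoacetyl-CoA in the cytosol, had 146 counts in fasted and 195 in fed cells, a log2 ratio of 0.08 (-0.24 to 0.40). Mvk, the mevalonate kinase gene, had 86 and 113 counts in fasted and fed cells, a log2 ratio of 0.10 (-0.32 to 0.52). Pmvk, the kinase gene of the next step, had 121 counts in fasted and 200 in fed cells, with -0.23 (-0.56 to 0.11). The ratio was thus near 1 along the row of phosphorylating steps. Mvd, the decarboxylase gene that yields isopentenyl diphosphate, had 96 fasted and 142 fed counts and -0.07 (-0.46 to 0.32). Ggps1, whose product makes geranylgeranyl diphosphate for protein prenylation, had 85 fasted and 112 fed counts and 0.10 (-0.32 to 0.52).

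Fdps and Idi1 had few reads, and with Mylip the widest intervals of the set. Idi1, the isomerase gene of isopentenyl diphosphate, had 35 counts in fasted and 33 in fed cells, a log2 ratio of 0.58 (-0.15 to 1.31). Fdps, the farnesyl diphosphate synthase gene, had 14 counts in fasted and 30 in fed cells, a log2 ratio of -0.60 (-1.63 to 0.36). These are the highest and the lowest ratio of the synthesis genes, yet neither could be told from 1 at this depth, and a 2-fold difference lay inside both intervals. In the annotation 26.7% of the exon bases of Fdps are shared with Gm43738 on the same strand, which is listed at 0 counts in both libraries, so the level of Fdps is uncertain.

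The late steps differed little as well. None of 11 was called, against 4.42% of all measured genes, and the median log2 ratio was -0.04 (range -0.50 to 0.23). Of the 11 intervals 9 held 1 (81.8%, against 64.1% of all measured genes) and 2 lay below it. The 2 below 1 made up 18.2% of the group, near the 19.2% of all measured genes. Among measured genes with at least 100 summed counts that share was 21.6%. All 11 intervals lay inside 2-fold in either direction, as did 93.1% of the 9825 measured genes with at least 100 summed counts. Their summed counts were 2297 in the fasted and 3419 in the fed library (458 and 489 CPM), a log2 ratio of -0.08 (-0.15 to 0.00072).

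Cyp51 and Nsdhl, both of which act in the removal of methyl groups from lanosterol and its products, were the late genes whose interval lay below 1. Cyp51, the lanosterol demethylase gene, had 298 counts (59.4 CPM) in fasted and 528 counts (75.6 CPM) in fed cells, a ratio of 0.797 (0.689 to 0.920). Nsdhl, a sterol dehydrogenase gene of C4 demethylation on chromosome X, had 131 counts (26.1 CPM) in fasted and 261 counts (37.4 CPM) in fed cells, a ratio of 0.709 (0.570 to 0.878). Of the measured genes, 10.1% had a ratio below that of Nsdhl and 17.6% a ratio below that of Cyp51, so neither stood at the edge of the distribution. Msmo1 and Hsd17b7, which act with Nsdhl at carbon C4, did not share its direction. Msmo1, the methyl oxidase gene, had a log2 ratio of 0.19 (-0.10 to 0.48) from 181 fasted and 224 fed counts, and Hsd17b7, the ketoreductase gene, had 167 fasted and 231 fed counts and 0.03 (-0.27 to 0.32).

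The remaining late genes had intervals that held 1. Sqle, a rate-limiting enzyme that epoxidises squalene, had 268 counts in fasted and 401 in fed cells, a log2 ratio of -0.08 (-0.31 to 0.14). Fdft1, the squalene synthase gene, had 172 fasted and 243 fed counts and a ratio of 1.000 (0.817 to 1.22), although 18.3% of its exon bases lie opposite exons of Ctsb. The entry into sterol synthesis thus showed no difference past counting error. Lss, which closes the ring to lanosterol, had a log2 ratio of 0.17 (-0.12 to 0.45) from 189 fasted and 238 fed counts. Ebp, the sterol isomerase gene, was the most abundant late gene per exon length, with 28.6 CPM per kb in fasted and 29.9 CPM per kb in fed cells and a log2 ratio of -0.04 (-0.25 to 0.16). Sc5d, the desaturase gene that follows it, had 216 fasted and 260 fed counts and 0.23 (-0.04 to 0.50). The other 2 late genes encode reductases that act at different steps. Dhcr7 had 216 fasted and 342 fed counts and -0.17 (-0.42 to 0.08). Tm7sf2 had 127 fasted and 209 fed counts and -0.22 (-0.55 to 0.10). In the annotation 12.1% of the exon bases of Tm7sf2 are shared with Vps51 on the same strand, so its level is uncertain.

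The balance between early and late steps was the same in the libraries within counting error. Late steps took 66.4% of the synthesis counts (64.8% to 67.9%) in the fasted library and 67.5% (66.2% to 68.8%) in the fed library. This share does not depend on the scaling between libraries. Without Hmgcs1 and Cyp51, the genes of each group with the most counts summed over both libraries (in fasted cells alone Ebp exceeded Cyp51, with 332 against 298 counts), it was 77.4% (75.8% to 79.0%) in fasted and 77.8% (76.4% to 79.1%) in fed cells.

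The 4 sterol regulators had ratios near 1 or slightly under it. All 4 had a negative log2 ratio, as did 52.1% of all measured genes, and none was called. The median was -0.14 (range -0.21 to -0.02), against -0.02 over all measured genes. The interval lay below 1 for 1 of the 4 (25%, against 19.2% of all measured genes). Srebf2, which encodes SREBP2, had 1047 counts (209 CPM) in fasted and 1708 counts (245 CPM) in fed cells, a ratio of 0.866 (0.801 to 0.935), the 1 regulator whose interval excluded 1. Scap, its escort gene, had 432 counts in fasted and 619 in fed cells, a log2 ratio of -0.02 (-0.20 to 0.16), which became positive (0.04) after correction for exon length. Insig1, itself a target of SREBP2, had 159 counts (31.7 CPM) in fasted and 252 counts (36.1 CPM) in fed cells, a log2 ratio of -0.17 (-0.46 to 0.13). Insig2, the second anchor of the complex, had 118 counts in fasted and 181 in fed cells, a log2 ratio of -0.12 (-0.47 to 0.22). Insig1 made up 57.4% (51.3% to 63.3%) of the Insig counts in fasted and 58.2% (53.4% to 62.9%) in fed cells, so the balance of the pair did not differ past counting error.

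**Figure D2:**
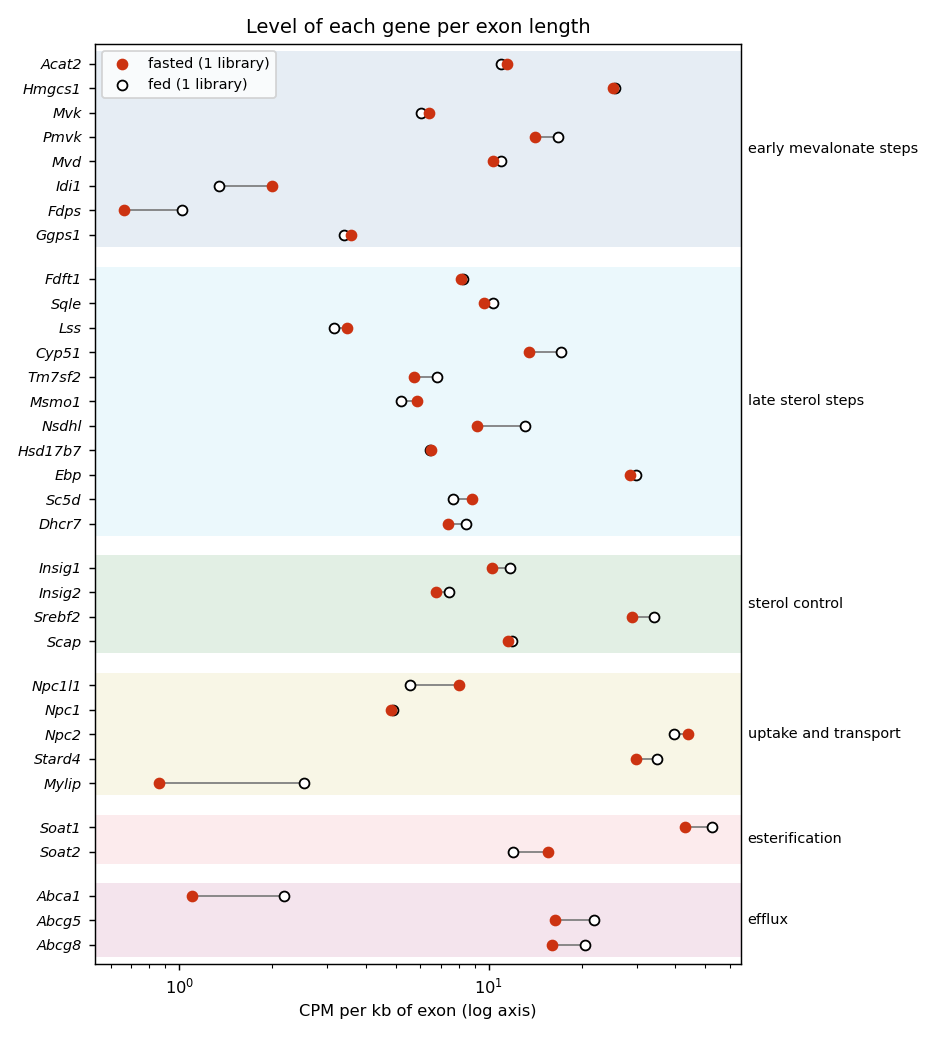
Level of each gene in CPM per kb of exon (log x axis) in the fasted library (red dots) and the fed library (open dots), joined by a line, by role from top to bottom. Most pairs of dots lie close together, and the widest gaps belong to Mylip (0.863 CPM per kb fasted, 2.52 fed) and Abca1 (1.10 fasted, 2.18 fed).

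Levels per exon length spanned a wide range, which the libraries shared. Npc2 and Soat1 stood at the top, with 43.9 and 43.1 CPM per kb in fasted cells, where Soat1 led in fed cells with 52.5 and Npc2 followed with 39.7. Stard4, Srebf2, Ebp and Hmgcs1 followed in that order in both libraries, between 25.2 and 29.8 CPM per kb in fasted and between 25.6 and 34.9 in fed cells. Fdps was lowest in both, at 0.663 CPM per kb in fasted and 1.02 in fed cells. Soat1 and Npc2 thus exceeded every synthesis gene per length in both libraries.

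Mylip, also called Idol, was the 1 gene called lower. It had 14 counts (2.79 CPM) in the fasted and 57 counts (8.16 CPM) in the fed library, a ratio of 0.347 (0.178 to 0.630) or a log2 ratio of -1.53 (-2.49 to -0.67). Only 0.848% of measured genes had a lower ratio. Its counts were among the smallest of the set. The call ended at a 3-fold threshold, which its ratio does not reach. The gene lies at chr13:45389742-45412022 (GRCm38). Its promoter window is shown as that of the called gene (GRCm38.p6, chr13:45389492-45389791, plus strand), with each CCAAT on either strand in capitals. It held no TCACNCCAC.

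Mylip: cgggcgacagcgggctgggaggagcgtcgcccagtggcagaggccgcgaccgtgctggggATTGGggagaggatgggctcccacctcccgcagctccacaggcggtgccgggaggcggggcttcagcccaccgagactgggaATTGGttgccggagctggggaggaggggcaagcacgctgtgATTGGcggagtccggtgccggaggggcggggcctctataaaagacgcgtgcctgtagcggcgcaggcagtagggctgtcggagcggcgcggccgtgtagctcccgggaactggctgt

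The other genes of uptake and transport differed in direction. Npc1l1, the brush border importer gene (chr11:6211013-6230143, GRCm38), had 180 counts (35.9 CPM) in fasted and 173 counts (24.8 CPM) in fed cells, a ratio of 1.47 (1.19 to 1.82), the largest ratio of the set whose interval lay above 1. Npc2, the soluble lysosomal sterol carrier gene, had 1199 counts (239 CPM) in fasted and 1508 counts (216 CPM) in fed cells, a ratio of 1.12 (1.04 to 1.21). Its membrane partner Npc1 had 274 counts in fasted and 388 in fed cells, a ratio of 0.997 (0.851 to 1.17). Stard4, a cytosolic sterol carrier gene and SREBP2 target, had 837 counts (167 CPM) in fasted and 1360 counts (195 CPM) in fed cells, a ratio of 0.869 (0.796 to 0.948). The median log2 ratio of the 5 was -0.0040, while their summed counts, 2504 in fasted and 3486 in fed cells, gave 0.02 (-0.05 to 0.09).

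The enzymes that esterify cholesterol for storage had opposite signs. Soat1, the widely expressed form, had 2117 counts (422 CPM) in fasted and 3591 counts (514 CPM) in fed cells, a ratio of 0.832 (0.789 to 0.879). Soat2, the form of enterocytes and hepatocytes, had 173 counts (34.5 CPM) in fasted and 185 counts (26.5 CPM) in fed cells, a ratio of 1.32 (1.07 to 1.63). Neither was called, and Soat1 remained far more abundant in both libraries. Soat2 made up 7.55% (6.51% to 8.71%) of the counts of the pair in fasted and 4.90% (4.23% to 5.64%) in fed cells. These counting intervals did not overlap, but the share was chosen after the values had been seen and restates the ratios of the 2 genes.

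Npc1l1 and Soat2 are genes of absorptive enterocytes, and markers of that cell type had higher levels in the same library. Of 20 enterocyte markers 13 were called higher and none lower, against 2.51% higher and 1.91% lower over all measured genes. Their median log2 ratio was 1.04. Their summed level was 4025 CPM in fasted and 2114 CPM in fed cells, and none of them was at 0 in either library. The part of this in the ratios of Npc1l1 and Soat2 was not tested. The largest log2 ratios among them were those of Fabp1 (4.78), Slc15a1 (2.50), Apoa1 (2.33) and Fabp2 (1.71), genes of lipid and peptide absorption, while the villin gene Vil1, named after its value was seen, had -0.01 (-0.08 to 0.06). The log2 ratios of Npc1l1 and Soat2 were 0.56 and 0.40. Abcg5 and Abcg8, which also act at the brush border of enterocytes, had ratios under 1 in the same library (0.761 and 0.796). What part the mix of cell types had in any of these ratios was not tested.

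The efflux genes all had intervals below 1, as did 19.2% of all measured genes. The 3 had a median log2 ratio of -0.39 (0.761-fold), and their summed counts were 581 in the fasted and 1106 in the fed library (116 and 158 CPM), a log2 ratio of -0.43 (-0.58 to -0.28). Abca1, which loads cholesterol onto apolipoprotein A-I (chr4:53030787-53159895, GRCm38), had 57 counts (11.4 CPM) in fasted and 158 counts (22.6 CPM) in fed cells, a ratio of 0.509 (0.370 to 0.694), just short of the 2-fold call. Of the measured genes, 2.59% had a lower ratio. Abcg5 had 223 counts (44.4 CPM) in fasted and 414 counts (59.3 CPM) in fed cells, a ratio of 0.761 (0.643 to 0.897). Abcg8 had 301 counts (60.0 CPM) in fasted and 534 counts (76.4 CPM) in fed cells, a ratio of 0.796 (0.689 to 0.918).

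Abcg5 and Abcg8, whose products work as a heterodimer, had nearly the same ratio, unlike Abca1. Abcg5 made up 42.6% (38.3% to 46.9%) of the counts of the pair in fasted and 43.7% (40.5% to 46.9%) in fed cells. Abca1 made up 9.81% (7.52% to 12.5%) of the counts of the 3 efflux genes in fasted and 14.3% (12.3% to 16.5%) in fed cells, intervals that overlapped by a small margin. The pair lies head to head on chromosome 17, and the Abcg5 start is 110 bases from the nearer of the 2 RefSeq starts of Abcg8, so 209 bases are common to those promoter windows. The other Abcg8 start (position 84676302) lies within Abcg5. The Abcg8 window is shown for that reason (GRCm38.p6, chr17:84682871-84683170, plus strand), with the bases from the Abcg5 start to the Abcg8 start in capitals.

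Abcg8: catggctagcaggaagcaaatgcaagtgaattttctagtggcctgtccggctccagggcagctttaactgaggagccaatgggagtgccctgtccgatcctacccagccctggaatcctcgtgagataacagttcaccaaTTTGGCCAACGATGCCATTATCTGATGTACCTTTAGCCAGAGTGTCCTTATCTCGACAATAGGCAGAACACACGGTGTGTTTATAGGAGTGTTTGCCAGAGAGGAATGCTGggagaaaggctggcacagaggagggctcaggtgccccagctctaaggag

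In the GENCODE annotation, 82 exon bases of Abcg5 and Abcg8 lie on opposite strands of the same stretch (3.02% of the Abcg5 exon bases). Reads in this stretch cannot be assigned to either gene, since no source used here gives the strand setting of the counting.

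The RNA ratio of the importer gene Npc1l1 thus lay above 1 and those of the efflux genes Abcg5 and Abcg8 below 1. Transport itself was not measured. Npc1l1 made up 25.6% (22.4% to 29.0%) of the summed counts of Npc1l1, Abcg5 and Abcg8 in the fasted library and 15.4% (13.4% to 17.7%) in the fed library, intervals that did not overlap. Against the lysosomal gene Npc1, Npc1l1 made up 39.6% (35.1% to 44.3%) of the pair's counts in fasted and 30.8% (27.0% to 34.8%) in fed cells. Apart from the late share of synthesis, these shares were chosen after the values had been seen. Those of Npc1l1 restate the single-gene ratios above.

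**Figure D3:**
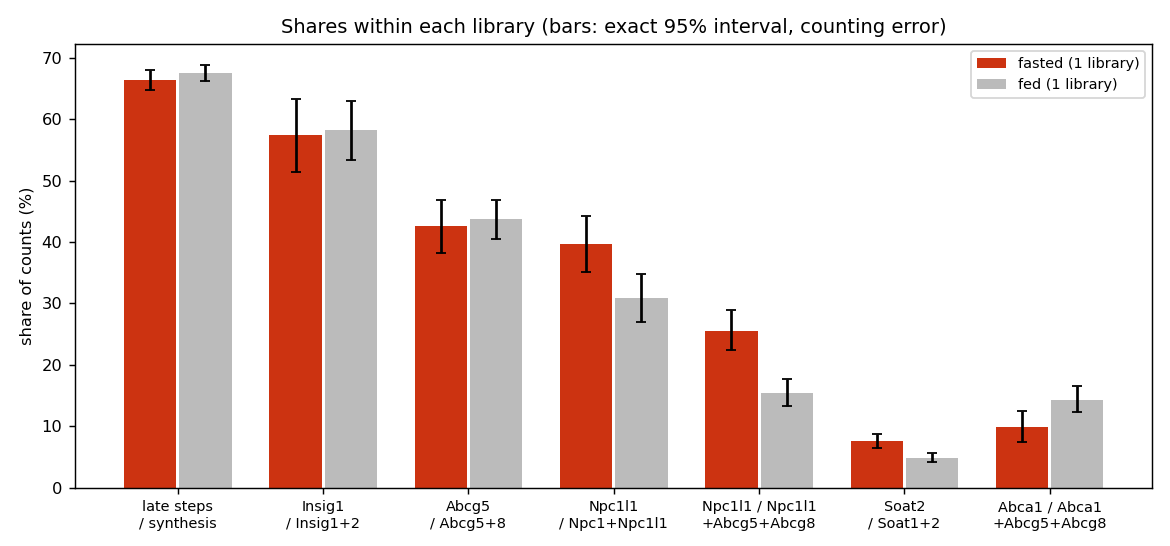
Share of counts (%, y axis) taken by the first-named genes within each library, for 7 combinations, in the fasted library (red) and the fed library (grey), with exact 95% intervals for counting error. The late-step, Insig1 and Abcg5 shares are nearly equal between the libraries, while the Npc1l1 and Soat2 shares are higher and the Abca1 share is lower in the fasted library.

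Genes around the pathway gave the setting for these values. For each list below, the share over all measured genes was 2.51% called higher and 1.91% called lower. Of 13 genes that process SREBP or degrade its ER partners, none was called and the median log2 ratio was 0.08 (range -0.45 to 0.31). Among the most counted were Erlin2, which tags proteins for degradation in the ER, at 0.08 (-0.04 to 0.19), and the protease gene Mbtps1, which makes the first cut in SREBP, at -0.22 (-0.35 to -0.09). The lowest was the ubiquitin ligase gene Rnf145 at -0.45 (-0.65 to -0.26), with 338 fasted and 653 fed counts. Of 15 genes that use isoprenoids for prenylation, dolichol or ubiquinone, none was called and the median was 0.06 (range -0.20 to 0.35). The most counted were Nus1, a subunit gene of dolichol synthesis, at 0.05 (-0.10 to 0.19), Coq2, of ubiquinone synthesis, at 0.24 (0.08 to 0.41), and Fnta, the shared subunit gene of prenyltransferases, at 0.06 (-0.13 to 0.25). The interval lay above 1 for 2 of these 15 genes (13.3%, against 16.7% of all measured genes). It lay below 1 for none, against 19.2% of all measured genes. The summed counts of the 15 gave a log2 ratio of 0.06 (0.0080 to 0.12).

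Of 18 further genes of sterol transport 1 was called higher and none lower, with a median log2 ratio of 0.05. The called gene was Scarb2, a lysosomal membrane protein gene, with 974 counts (194 CPM) in fasted and 612 counts (87.6 CPM) in fed cells, a log2 ratio of 1.17 (1.02 to 1.32). Of the others, the most counted were the lipoprotein receptor gene Lrp1 at 0.42 (0.31 to 0.53), the oxysterol-binding protein gene Osbp at 0.09 (-0.07 to 0.24) and the sterol carrier gene Scp2 at 0.51 (0.32 to 0.70). Nceh1, which hydrolyses cholesteryl ester, had 335 counts in fasted and 243 in fed cells, a log2 ratio of 0.96 (0.72 to 1.21), just under the call. Scarb1, the receptor gene of high-density lipoprotein, had 100 counts in fasted and 93 in fed cells, with 0.60 (0.18 to 1.03).

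Genes of LXR signalling and oxysterols did not move one way. Of 12 listed, 8 were measured, 1 was called higher and none lower, with a median log2 ratio of 0.28 (range -0.42 to 1.22). Cyp27a1, a sterol hydroxylase gene that makes an oxysterol, had 170 counts in fasted and 103 in fed cells, a log2 ratio of 1.22 (0.86 to 1.59). The receptor gene Nr1h3 (LXR alpha) had 147 counts in fasted and 124 in fed cells, with 0.74 (0.39 to 1.10), and Nr1h2 (LXR beta) had 692 and 920 counts in fasted and fed cells, with 0.09 (-0.06 to 0.23). Known LXR targets lay on either side. Lpcat3, a phospholipid acyltransferase gene, had 973 fasted and 799 fed counts and 0.78 (0.65 to 0.92). Srebf1, which encodes the lipogenic SREBP1, had 539 fasted and 1021 fed counts and -0.42 (-0.58 to -0.27). Abcg1, a further efflux gene, had only 2 counts in fasted and 14 in fed cells, too few to be termed measured, with a log2 ratio of -2.31 (-5.49 to -0.19).

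Among 15 further SREBP targets, mostly of fatty acid synthesis, 14 were measured, 1 was called higher and 1 lower, with a median log2 ratio of -0.12. The called genes were Me1, the malic enzyme gene, with 94 fasted and 31 fed counts, and Scd2, a fatty acid desaturase gene, with 56 fasted and 1187 fed counts. The most counted of the others were the desaturase genes Fads2 at 0.05 (-0.04 to 0.13) and Fads1 at -0.11 (-0.22 to -0.01), and the fatty acid synthase gene Fasn at -0.25 (-0.37 to -0.14). The sterol-binding gene Tmem97, which like the synthesis genes answers to sterol loss in cultured cells, had 374 counts in fasted and 419 in fed cells, a log2 ratio of 0.33 (0.13 to 0.54). Aacs, which makes acetoacetyl-CoA for lipid synthesis, had 168 counts in fasted and 297 in fed cells, with -0.32 (-0.61 to -0.05).

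**Figure D4:**
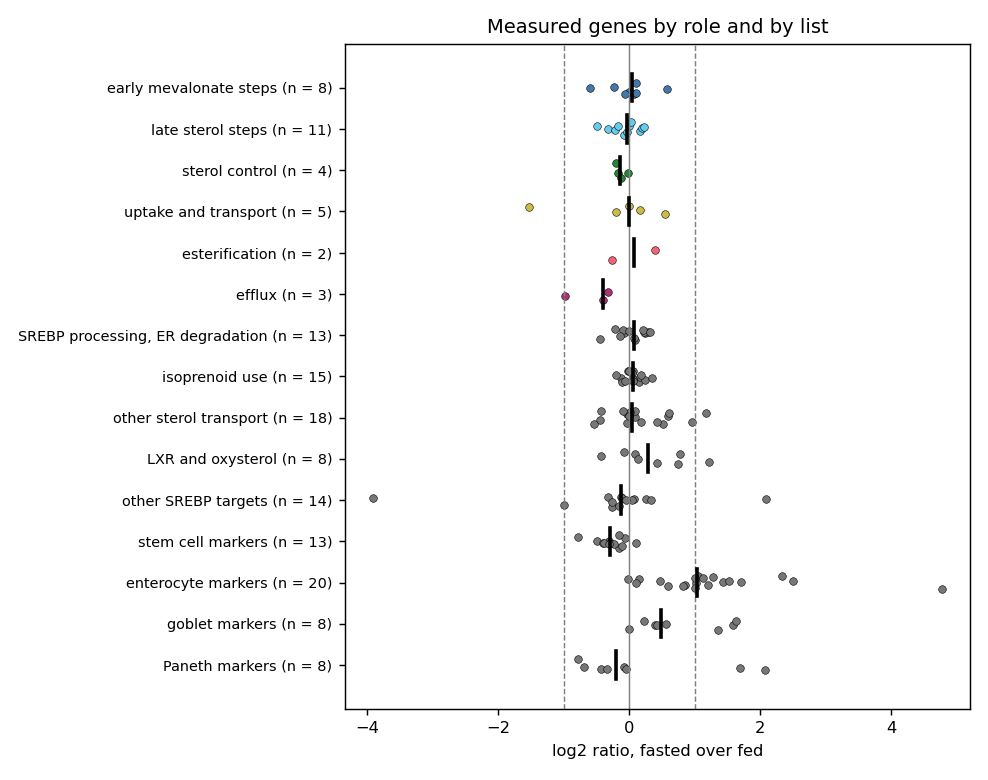
Log2 ratio of fasted over fed (x axis) for every measured gene (dots) of the 6 roles (colours), the 5 further pathway lists and 4 marker lists (grey), with the median of each as a bar. The synthesis roles, SREBP processing, isoprenoid use and other sterol transport have medians between -0.04 and 0.08. The median is 0.28 for LXR and oxysterol genes, -0.12 for other SREBP targets and -0.14 for sterol control. Efflux lies left of 0 at a median of -0.39, and enterocyte markers centre at 1.04.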

How the data were processed

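Per the labels' protocols, libraries of sorted GFP-high cells were prepared with an Illumina TruSeq RNA kit. FastQC, STAR, HTSeq and DESeq and the builds GRCm38 and mm10 are named in the submitters' processing notes, without versions or roles, while annotation and strand setting were not given in the sources used here. The authors deposited whole-number counts per Ensembl gene for each library, not normalised. They also deposited a table of normalised signal, which equals the counts divided by 1 factor per library (0.842 fasted, 1.19 fed). Multiplied by these factors and rounded, 100% of its values in either library gave back the counts, and these recovered reads gave 302 higher and 230 lower genes, as the counts did.

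Of 45706 gene IDs 45143 were matched to GENCODE M21 (GRCm38), which gave symbols, positions and exon lengths. Promoter windows came from RefSeq (GRCm38.p6), with 27 of 33 genes matched by symbol. Median-of-ratios size factors (0.842 fasted, 1.19 fed) scaled the counts. The log2 ratio was taken with an exact 95% Clopper-Pearson interval from the fasted share of a gene's reads, for counting error only. Levels between genes were compared as CPM per kb of merged exons. All 33 genes are named. Of each further pathway list the called genes and the 3 with most counts are named, and of marker lists the called genes with the 4 largest ratios; 1 gene that this rule takes is not reported here. Rnf145, Nceh1, Scarb1, Nr1h3, Abcg1, Tmem97, Aacs and Olfm4 were added after their values were seen. The genes and lists were chosen with earlier results of these data known. The call was tested on simulated counts that varied by counting error alone, so the test does not cover differences between mice or libraries. Python 3.11.15, scipy 1.17.1 and edgeR 4.0.16 (TMM and upper-quartile factors) were used.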

Additional observations from a re-analysis of the deposited data

How the results depend on the processing

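No paired analysis was possible because each group had 1 library, and for the same reason no replicate could be left out. TMM factors, total counts, upper-quartile factors and the deposited normalised table moved all 33 log2 ratios by less than their counting intervals, and so did a minimum of 5 CPM for the 32 genes it kept (Fdps dropped out). The correction for exon length did the same for 32 of 33 and moved Soat1 to -0.18.

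The call of Mylip held under each scaling and filter; at 3-fold 0 genes were called lower, and at 1.5-fold 2 were (Mylip and Abca1). Over all measured genes, 302 were higher and 230 lower in the report, against 614 and 607 with 1.5-fold, 124 and 88 with 3-fold, and 176 and 111 if 5 CPM were required, since the thresholds differ and fewer genes pass. They were 254 and 257 after length correction and 393 and 307 with no low-count filter. Length correction moved the uptake and transport median to 0.11 and that of all 33 genes to -0.11. From summed counts the ratio was -0.22 for esterification, which Soat1 dominates, and -0.11 for all 33 genes. The LXR and oxysterol median of 0.28 was 0.14 with no low-count filter and 0.17 after length correction. Without Hmgcs1 and Cyp51 the late share was 77.4% in fasted and 77.8% in fed cells. Ratios near 1 changed sign between settings for 6 genes (Acat2, Fdft1, Hmgcs1, Mvk, Npc1 and Scap). Depth limits Idi1, Fdps and Mylip most.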
